A study of Mus musculus with 40 samples.

Results

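Immediate early genes are switched on within minutes of a signal, without new protein synthesis, and many encode transcription factors. This account follows 10 of them in the left ventricle of the mouse, taken by gene symbol from a table of 22676 genes. They are the AP-1 genes Fos (ENSMUSG00000021250), Fosb (ENSMUSG00000003545), Jun (ENSMUSG00000052684) and Junb (ENSMUSG00000052837), the EGR genes Egr1 (ENSMUSG00000038418), Egr2 (ENSMUSG00000037868) and Egr3 (ENSMUSG00000033730), the NR4A genes Nr4a1 (ENSMUSG00000023034) and Nr4a3 (ENSMUSG00000028341), and Myc (ENSMUSG00000022346). All 10 were in the table and all 10 passed the filter on low values, which left 16395 genes for testing.

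FOS and JUN proteins pair into AP-1, a dimer that binds DNA, and EGR proteins are zinc finger factors that bind GC-rich sites. NR4A proteins are nuclear receptors whose activity follows their abundance rather than a known hormone, and MYC pairs with MAX to drive genes of growth and ribosome production. In cardiac muscle these genes are known for a quick and brief rise when cells are stretched or meet hypertrophic agonists. Kinases of the MAP kinase family and calcium signals reach them through factors already on their promoters, such as SRF, CREB and MEF2.

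RNA came from the left ventricle of FVB/NJ mice, in 40 libraries of stranded RNA sequencing. The control genotype is named Con. The other genotype, ONOFF, carried dnOGAh, an inducible dominant negative form of OGA restricted to the heart; OGA takes O-GlcNAc, a single-sugar mark, off proteins. Both genotypes ate doxycycline food for 2 weeks and standard chow for 2 more weeks. Surgery followed, either transverse aortic constriction (TAC), in which the aorta is narrowed so that the ventricle pumps against a higher pressure, or sham surgery. Ventricles were collected after 9 weeks. Genotype and surgery gave 4 conditions of 10 libraries each (Con Sham and Con TAC, and ONOFF Sham and ONOFF TAC), with 5 from females (F) and 5 from males (M). The ages of the mice and the end of transgene expression were not given in the labels. The design asks whether doxycycline feeding of transgene carriers before surgery changed the ventricle with and without pressure overload.

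Values are the normalized counts that the authors deposited, and their sum per library was 35176220 to 47653987. Sequencing depth before normalization is unknown. In 3 Con Sham libraries (F replicates 3 and 5, M replicate 4), between 5782 and 6920 genes had a value of 0, while the remaining 37 libraries had 2635 to 4594 such genes. Con TAC F replicates 2 and 3, labelled female, had 51.7 and 6.72 for Xist, an RNA made in female cells, against 1123 to 3274 in the other 18 female libraries. Results are therefore given with and without these libraries where they matter. The labels do not say how the libraries relate to litters or days, so p-values measure the spread between these libraries. Oga itself was at 3121 ± 263 in Con Sham, 2988 ± 366 in Con TAC, 5778 ± 1750 in ONOFF Sham and 3816 ± 767 in ONOFF TAC (SD, n = 10 each). In ONOFF mice it was higher than in Con after sham surgery by a log2 difference of 0.83 (adjusted p 0.000295 in limma) and stood 0.34 above Con after TAC (adjusted p 0.0645 in limma). It fell in ONOFF mice after TAC by 0.56 (adjusted p 0.000413 in limma). The share of these counts that came from the transgene was not measured, so each comparison of ONOFF with Con, or of TAC with sham in ONOFF, is also one between unequal Oga levels. All 6 cardiomyocyte markers looked up (Myh6, Tnnt2, Tnni3, Actc1, Ryr2 and Pln) were above 0 in every library.

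After TAC, 3 of the 10 genes rose in Con mice (Nr4a3, Egr3 and Myc) and 4 rose in ONOFF mice (Egr2, Egr3, Myc and Junb). None fell in either genotype. The Con count was 1 without the 2 libraries low in Xist, where Egr3 and Myc did not pass, and Junb missed the threshold in ONOFF mice when any single one of 12 libraries was left out. A gene was called when limma gave an adjusted p below 0.05 over all genes tested. Of all tested genes, 3.17% were called higher and 2.62% lower in Con mice, and 10.7% higher and 10.6% lower in ONOFF mice. The median log2 change of the 10 genes was 0.34 in Con and 0.75 in ONOFF, beside medians of 0.019 and 0.0063 over all tested genes. Fos, Fosb, Jun, Egr1 and Nr4a1 did not pass in either genotype. Con and ONOFF did not differ past the threshold for any of the 10, whether after sham surgery, after TAC or in the response to TAC. The result after TAC was not firm. Egr2 and Myc passed there without the 2 libraries low in Xist, and Egr2 and Nr4a3 passed when the fit weighted the libraries.

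**Figure D1:**
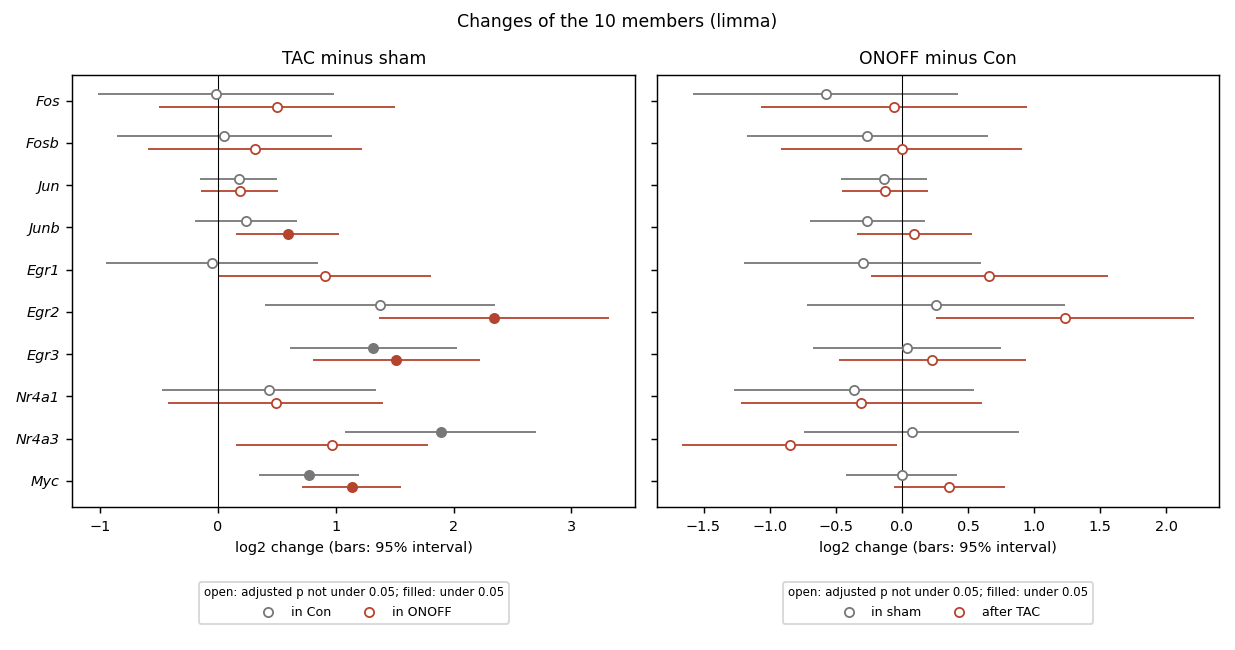
Log2 change of each gene with its 95% interval from limma, for TAC minus sham in each genotype (left) and ONOFF minus Con after each surgery (right); filled points have an adjusted p below 0.05. Nr4a3, Egr3 and Myc are filled for Con mice, and Egr2, Egr3, Myc and Junb for ONOFF mice, while no point is filled on the right. Without the 2 libraries low in Xist, Egr3 and Myc would not be filled for Con mice, and Junb lies close to the threshold. On the right, the same omission would fill Egr2 and Myc after TAC.

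Egr2, a zinc finger factor also known from nerve myelination, had the largest response among the 10 in ONOFF mice. Its normalized count ran from 36.8 to 179.8 in ONOFF Sham (median 62.1) and from 76.2 to 1061 in ONOFF TAC (median 378). In Con mice it ran from 11.7 to 159 after sham surgery (median 55.9) and from 55.5 to 636 after TAC (median 136). Of the ONOFF TAC libraries, 8 of 10 lay above the highest ONOFF Sham library, but in Con mice only 4 of 10 lay above the highest sham library, so both pairs of conditions overlapped. The log2 change in ONOFF was 2.35 (SE 0.48, 5.09-fold on the log2(value + 1) scale), with an adjusted p of 0.000353 in limma. In Con mice it was 1.37 (SE 0.48), with an adjusted p of 0.0844 in limma, which missed the threshold. Over single omissions the Con value ran from 1.10 to 1.57 and its adjusted p in limma from 0.0436 to 0.176, and it passed only without Con TAC F replicate 1. Without the 2 libraries low in Xist it was 0.96 (adjusted p 0.327 in limma). Of 5 markers of Schwann cells, in which Egr2 drives myelin genes, 0 rose after TAC, 1 fell in Con and 2 fell in ONOFF. Over all tested genes, 3.17% were called higher and 2.62% lower in Con mice, and 10.7% and 10.6% in ONOFF mice. In each genotype 4 of the 5 markers had an unadjusted p below 0.05 in limma, and in ONOFF mice 1 had a positive log2 change. The sum of the 5 was 248 to 572 in ONOFF Sham and 172 to 479 in ONOFF TAC. Which cells held the Egr2 RNA was not tested.

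Egr3, a close relative of Egr2, rose in both genotypes. Its values ran from 48.1 to 338 in Con Sham (median 107) and from 125 to 543 in Con TAC (median 276). In ONOFF mice they ran from 59.4 to 232 after sham surgery (median 99.1) and from 97.1 to 767 after TAC (median 352). All 10 Con TAC libraries and 9 of 10 ONOFF TAC libraries were above the sham mean of their sex, although the ranges overlapped. The log2 change was 1.32 in Con (SE 0.35, adjusted p 0.0182 in limma) and 1.51 in ONOFF (SE 0.35, adjusted p 0.00136 in limma). Without the pair of Con TAC libraries low in Xist, the Con value was 1.07 and its adjusted p in limma 0.103.

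Egr1, the best studied member of the family, passed in neither genotype. It ran from 462 to 3216 in Con Sham (median 1703) and from 691 to 6886 in Con TAC (median 1412). Con TAC F replicate 2 alone held the value of 6886, and the next Con TAC library, F replicate 3, had 2193. Both are libraries low in Xist. In ONOFF mice Egr1 ran from 441 to 2881 after sham surgery (median 1274) and from 475 to 6530.2 after TAC (median 2301), with 4 of 10 TAC libraries above every sham library. The log2 change was −0.050 in Con (SE 0.44) and 0.91 in ONOFF (SE 0.44, adjusted p 0.151 in limma). Without the libraries low in Xist the Con change was −0.49, and it did not pass.

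The promoters of the genes show what recognition sequences lie close to their starts. RefSeq windows ran from 250 bases before to 50 after a start (GRCm38.p6, whereas the counts were made on GRCm39). They were used for 7 of the 10: Fos, Fosb, Jun, Junb, Egr2 (5 windows), Nr4a1 and Nr4a3. Entries for Egr1, Egr3 and Myc were not used here. Both strands were searched for 7 motifs: the CArG box bound by SRF, CRE (TGACGTCA), AP-1 (TGANTCA), EGR (GCGNGGGCG), E-box (CACGTG), GC box (GGGCGG) and TATAAA. The CArG box was found in 1.63% of 32851 promoters of the table, and among these 7 genes in Egr2, at a pair of places. The EGR motif was found in 5.55% of promoters, and here in Fosb and Nr4a1; each of these matches overlaps a GC box, which 35.7% of promoters hold. TATAAA was found in 13.6% of promoters, and here before the start of Fos and, in Junb, beginning at the start base itself. CRE (1.79% of promoters) and AP-1 (7.81%) had no match in the windows of these genes, and the E-box (7.15%) had 1, in Egr2. Only the letters given were searched, so sites with other letters or outside the windows would be missed. The CArG, EGR and Fos TATAAA matches are shown because their motifs name SRF, the EGR proteins themselves and the start site; they are printed 5′ to 3′, with the motif in capitals and 10 bases on either side.
Egr2, chr10:67537787-67537816, plus strand, CArG box: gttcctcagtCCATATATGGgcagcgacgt
Egr2, chr10:67537484-67537513, plus strand, CArG box: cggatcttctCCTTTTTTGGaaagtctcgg
Fosb, chr7:19310077-19310105, minus strand, EGR motif: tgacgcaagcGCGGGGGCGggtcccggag
Nr4a1, chr15:101266776-101266804, plus strand, EGR motif on the opposite strand: gcgtcagtggCGCCCCCGCccctctccat
Fos, chr12:85473847-85473872, plus strand, TATAAA: acagcgcttcTATAAAggcgccagct
These matches describe letters only; binding was not measured, and no value in the table was tied to them by a test.

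Nr4a3, an orphan nuclear receptor, had the largest response of the 10 in Con mice. Its values ran from 52.8 to 262 in Con Sham (median 133) and from 149 to 1273 in Con TAC (median 493). They ran from 31.9 to 378 in ONOFF Sham (median 183) and from 79.7 to 662 in ONOFF TAC (median 285). Of the Con TAC libraries, 8 of 10 lay above the highest Con Sham library, against 3 of 10 for the same comparison in ONOFF mice. The log2 change in Con was 1.89 (SE 0.40, 3.71-fold), with an adjusted p of 0.00293 in limma. In ONOFF it was 0.97 (SE 0.40), with an adjusted p of 0.0833 in limma. It passed there without ONOFF Sham F replicate 1 (1.11, adjusted p 0.0498) or without ONOFF TAC M replicate 5 (1.19, adjusted p 0.0238). The change in ONOFF minus that in Con was −0.92 (SE 0.57, 95% interval −2.07 to 0.23), with an adjusted p of 0.57 in limma, so the responses of the genotypes were not shown to differ.

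Nr4a1, a receptor of the same family also known as Nur77, was spread widely in every condition. It ran from 326 to 3634 in Con Sham (median 1535), from 493 to 3042 in Con TAC (median 2078), from 381 to 2818 in ONOFF Sham (median 1001) and from 296 to 2983 in ONOFF TAC (median 1750.5). The 4 ranges covered nearly the same interval. The log2 change after TAC was 0.43 in Con and 0.49 in ONOFF (SE 0.45 for both), with adjusted p-values of 0.647 and 0.499 in limma.

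Myc rose in both genotypes, and its conditions were the most clearly separated of the 10 in ONOFF mice. Its values ran from 75.03 to 177 in Con Sham (median 122), 102 to 591 in Con TAC (median 215), 77.9 to 164 in ONOFF Sham (median 125) and 203 to 353 in ONOFF TAC (median 278). Every ONOFF TAC library was above every ONOFF Sham library, which was the case for no other of the 10 genes in any of the 4 comparisons of conditions and for 1.48% of tested genes in this one. In Con mice, 7 of 10 TAC libraries were above the highest sham library. The log2 change was 1.13 in ONOFF (SE 0.21, 2.2-fold, adjusted p 7.19e-05 in limma) and 0.77 in Con (SE 0.21, 1.71-fold, adjusted p 0.0198 in limma). The highest Con TAC values, 591 and 429, belonged to F replicates 2 and 3, the libraries low in Xist. Without the first of them the Con change was 0.63 (adjusted p 0.0534 in limma), and without both it was 0.46 (adjusted p 0.176 in limma). With only the Con libraries in the fit, the adjusted p was 0.0962 in limma.

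**Figure D2:**
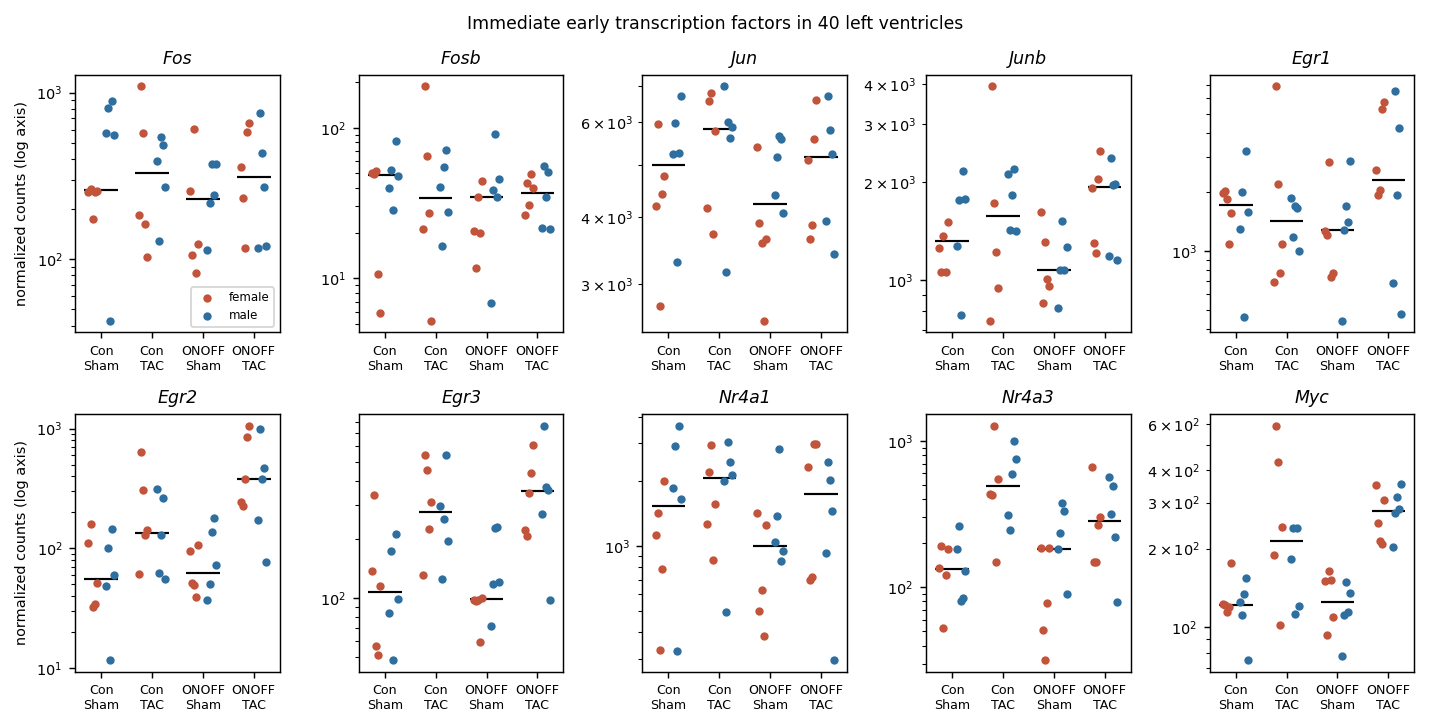
Normalized count of each gene in every library on a log axis, by condition and sex (red female, blue male), with a line at the median of each condition. Myc in ONOFF TAC (203 to 353) sits apart from ONOFF Sham (77.9 to 164), whereas the ranges of the other 9 genes overlap in every pair of conditions compared.

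Among the AP-1 genes, Junb alone passed, and it did so in ONOFF mice. JUNB is a JUN family protein that often acts against JUN at shared sites. Its values ran from 816 to 1616 in ONOFF Sham (median 1073) and from 1149.8 to 2492 in ONOFF TAC (median 1934), and 6 of 10 TAC libraries lay above every sham library. In Con mice they ran from 779 to 2159.6 after sham surgery (median 1316) and from 748 to 3931 after TAC (median 1574). The log2 change was 0.59 in ONOFF (SE 0.21, 1.51-fold, adjusted p 0.0441 in limma) and 0.24 in Con (SE 0.21, adjusted p 0.587 in limma). The ONOFF value stood close to the threshold. Leaving out any single one of 12 libraries (ONOFF TAC F replicates 1, 4 and 5, ONOFF TAC M replicates 2, 3 and 4, ONOFF Sham F replicates 2, 4 and 5, and ONOFF Sham M replicates 1, 2 and 4) ended the call. The lowest change over single omissions was then 0.52 and the highest adjusted p in limma 0.0915.

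Fos, the classic partner of JUN in AP-1, ran from 42.8 to 891 in Con Sham (median 259.9), 103 to 1093 in Con TAC (median 330.4), 82.2 to 602 in ONOFF Sham (median 231) and 116 to 752 in ONOFF TAC (median 314). In Con Sham its highest library was 20.8 times its lowest. The log2 change after TAC was −0.015 in Con and 0.50 in ONOFF (SE 0.49 for both), with adjusted p-values of 0.991 and 0.536 in limma. Fosb, whose protein takes the place of FOS in the same dimers, ran from 5.23 to 189 over all libraries, and its log2 changes were 0.055 in Con and 0.32 in ONOFF (SE 0.45). Jun, the main JUN family member, varied least: its values stayed between 2560.1 and 7004 in all 40 libraries. Its log2 change was 0.18 in both genotypes (SE 0.16), with 95% intervals of −0.15 to 0.50 in Con and −0.14 to 0.51 in ONOFF.

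The genotypes were then compared with the surgery held the same. After sham surgery 0 of the 10 genes passed in limma, 0 had an unadjusted p below 0.05, and 0.14% of all tested genes were called. Log2 differences (ONOFF minus Con) ran from −0.58 for Fos to 0.26 for Egr2, and 7 of 10 were negative. After TAC 0 of 10 passed, while 2 had an unadjusted p below 0.05 and 7.97% of tested genes were called. Egr2 was at 209.6 ± 179.3 in Con TAC and 484 ± 355 in ONOFF TAC (mean ± SD, n = 10 each), a log2 difference of 1.23 (SE 0.48, 95% interval 0.26 to 2.21, adjusted p 0.116 in limma). Nr4a3 went the other way, with 574 ± 350.2 in Con TAC and 320.4 ± 193 in ONOFF TAC, a log2 difference of −0.85 (SE 0.40, 95% interval −1.66 to −0.034, adjusted p 0.215 in limma). Egr1 differed by 0.66 (SE 0.44) and Myc by 0.36 (SE 0.21), with adjusted p-values of 0.435 and 0.343 in limma.

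Those differences after TAC depended on a few libraries. Without Con TAC F replicate 2, Egr2 passed at 1.45 (adjusted p 0.0492 in limma), and without ONOFF TAC M replicate 5 at 1.48 (adjusted p 0.0493 in limma). Without both libraries low in Xist, Egr2 (1.65, adjusted p 0.0298 in limma) and Myc (0.68, adjusted p 0.0147 in limma) passed. The difference of the TAC responses (ONOFF minus Con) was positive for 9 of 10 genes, from 0.0084 for Jun to 0.97 for Egr2, and negative for Nr4a3. None of the 10 passed in limma or had an unadjusted p below 0.05 for that difference, and 0.445% of tested genes were called. The TAC comparisons and the genotype comparisons share conditions, so they are not independent of each other.

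The order of the mean levels over the 4 conditions was not the same for all genes. For Egr2, Egr3 and Myc both sham conditions were lowest, Con TAC followed, and ONOFF TAC was highest. Egr2 had means of 75.6 ± 50.4 in Con Sham and 81.7 ± 47.5 in ONOFF Sham; Myc had 125 ± 26.8 and 126 ± 28.3 (SD, n = 10 each). Neighbouring sham levels differed by less than 1 SD for each. After TAC, Egr3 had 308 ± 155 in Con and 368 ± 198 in ONOFF, and Myc had 245 ± 154 and 276 ± 56.2, again less than 1 SD apart. For Nr4a3 the order at the top was exchanged, with Con TAC above ONOFF TAC. For Fos, Fosb, Jun, Junb, Egr1 and Nr4a1, ONOFF Sham had the lowest mean, and each mean was within 1 SD of the next in the order. The highest mean was in Con Sham for Fos (408 ± 284), in Con TAC for Fosb (51.9 ± 52.8), Jun (5471 ± 1339) and Nr4a1 (1902 ± 849), and in ONOFF TAC for Junb (1757 ± 506) and Egr1 (3133 ± 2145).

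The sexes were also read apart, with 5 libraries a group. In ONOFF females 3 of the 10 genes rose after TAC, against 5.24% of tested genes: Egr2 by a log2 change of 2.82 (adjusted p 0.00535 in limma), Egr3 by 1.91 (adjusted p 0.00941 in limma) and Myc by 0.99 (adjusted p 0.0242 in limma). In ONOFF males 1 of 10 rose, against 5.98% of tested genes: Myc by 1.28 (adjusted p 0.00236 in limma). Egr2 in ONOFF males was at 1.87 (adjusted p 0.0689 in limma) and Egr3 at 1.12 (adjusted p 0.157 in limma). The difference between the sexes passed for 0 of the 10 genes in limma (0 had an unadjusted p below 0.05), and 0% of tested genes were called: for Egr2 it was −0.95 (male minus female, SE 0.96, adjusted p 0.839 in limma). In Con mice 0 of 10 passed in either sex, with 4 genes at an unadjusted p below 0.05 in females and 2 in males, and 1.12% and 0.854% of tested genes called in either direction. Nr4a3 was at 1.86 in Con females and 1.92 in Con males (SE 0.57 for both). The Con TAC females include the 2 libraries low in Xist, and without them 3 remain. Nr4a3 was then at 1.39 in Con females (SE 0.63, adjusted p 0.481 in limma), Egr3 at 0.93 rather than 1.43, Egr2 at 0.70 rather than 1.53 and Myc at 0.37 rather than 1.01. Fos (0.27 with them, −0.70 without), Fosb (0.44 and −0.70) and Junb (0.21 and −0.37) changed sign there, and none of these values passed. Averaged over the 4 conditions, males and females differed past the threshold for 0 of the 10 genes, 0 had an unadjusted p below 0.05, and 3.98% of tested genes were called. Without the 2 libraries low in Xist the adjusted p-values of that difference ran from 0.234 (Fosb) to 0.973 (Egr1) in limma.

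Libraries of one group differed more for each of these genes than for the median gene, though by unequal amounts. The SD of log2 values within groups was 1.13 for Fos, 1.12 for Egr2, 1.06 for Fosb, 1.01 for Nr4a1 and 1.00 for Egr1. It was 0.93 for Nr4a3 and 0.82 for Egr3, and lower for Junb (0.50), Myc (0.49) and Jun (0.38). The median over all tested genes was 0.29. For Fos, 93.6% of tested genes had a smaller SD, for Junb 72.4%, for Myc 71.6% and for Jun 63.2%.

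The spread was shared between genes. After the mean of each of the 8 groups was taken off, all 45 pairs of the 10 genes had a positive correlation over the 40 libraries, with a median Pearson r of 0.607 and a range of 0.096 to 0.921. The permutation test (two-sided, 100000 shuffles of libraries within groups, adjusted over the 45 pairs) passed for 33 pairs by Pearson r and 31 by Spearman rho. The share of pairs of other tested genes that would pass was not computed. These counts therefore do not show that shared spread is particular to the 10. The strongest pair was Egr2 with Egr3 (r = 0.921, rho = 0.94). Its unadjusted permutation p was 1e-05, the smallest these shuffles can give, and 3.21e-05 after adjustment (3.46e-05 for rho). It stayed at 0.918 without the 2 libraries farthest from the median of Egr2. Jun with Nr4a1 (r = 0.847, rho = 0.765), Junb with Egr1 (r = 0.840, rho = 0.801), Fos with Junb (r = 0.838, rho = 0.850) and Fos with Egr1 (r = 0.833, rho = 0.845) followed, each with the same permutation p-values. They had r between 0.795 and 0.805 without the 2 farthest libraries.

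Nr4a3 and Myc stood more apart from the others. Nr4a3 went most with Nr4a1 (r = 0.685, rho = 0.650, permutation p 2e-05 and 7e-05, adjusted 5e-05 and 0.000143, r 0.639 without the 2 farthest libraries). It also passed with Jun (r = 0.607, rho = 0.590, adjusted permutation p 0.0003 and 0.000579) and Egr3 (r = 0.450, rho = 0.441, adjusted 0.0117 and 0.012). With Egr2 it passed by Pearson r alone (r = 0.380, rho = 0.351, adjusted permutation p 0.0415 and 0.0571). With Egr1 it had an r of 0.096 (rho 0.096, permutation p 0.626 and 0.605, adjusted 0.626 and 0.627, r −0.047 without the 2 farthest). Myc passed by Pearson r with 2 genes. These were Junb (r = 0.514, rho = 0.484, permutation p 0.0228 and 0.00653, adjusted 0.0342 and 0.0101) and Egr1 (r = 0.422, rho = 0.348, permutation p 0.0254 and 0.0449, adjusted 0.0367 and 0.0594). Without the 2 farthest libraries these were 0.325 and 0.376. Without the 5 libraries that stood apart by zeros or Xist they were 0.141 and 0.155. So the relations of Myc rest on few libraries, while Egr2 with Egr3 was 0.910 without those 5.

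**Figure D3:**
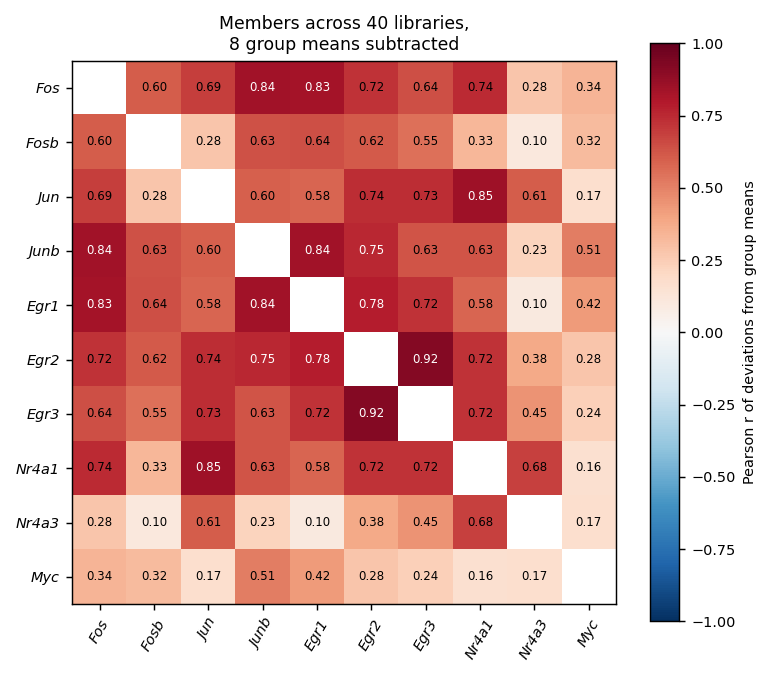
Pearson r between the log2 values of each pair of genes over 40 libraries, after subtraction of the 8 group means; the colour scale gives r. All 45 pairs are positive, Egr2 with Egr3 is strongest (0.921), and the row of Myc and that of Nr4a3 hold the lowest values.

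The same libraries were therefore high or low for many of the genes at once. Con TAC F replicate 2 was on average 1.25 log2 units above its group mean, and was the highest of its group for 7 of the 10 genes. ONOFF TAC M replicate 2 was 0.94 above and highest for 8. At the other end, Con Sham M replicate 3 was 1.32 below its group mean on average and lowest for 9 of the 10, with Fos at 42.8 where the other 4 Con Sham males had 561 to 891. ONOFF TAC M replicate 5 was 1.17 below and lowest for 8, with Egr1 at 475 and Egr2 at 76.2, yet it had the highest Myc of its group, 353.

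**Figure D4:**
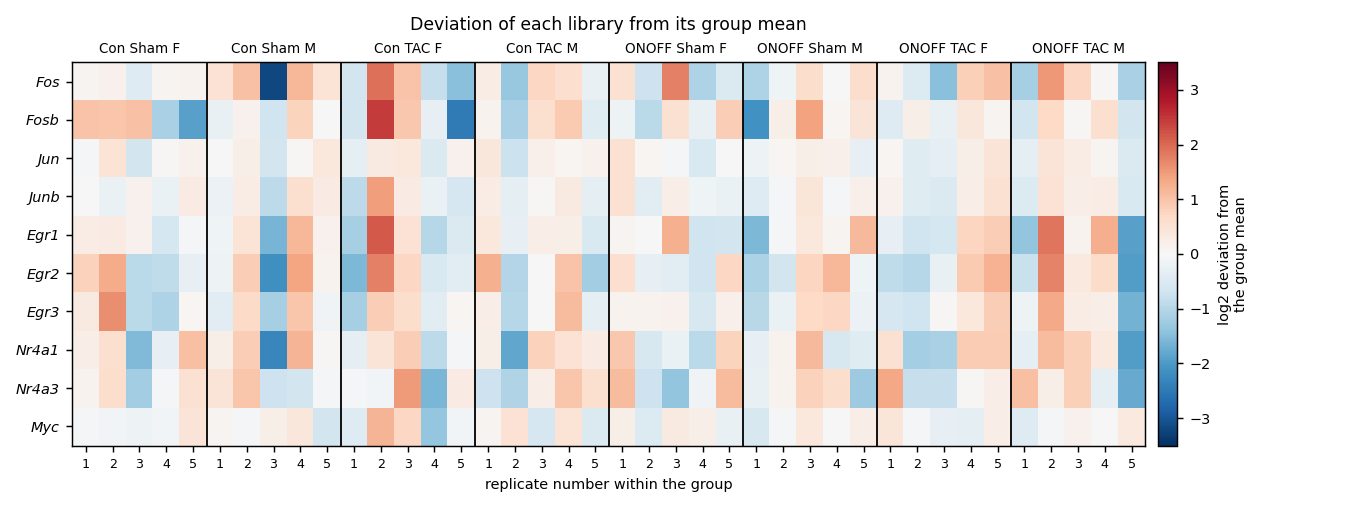
Deviation of each library from the mean of its group for each gene, in log2 units; libraries are ordered by group and the colour gives the size and direction. In some columns most genes share a colour, as in Con Sham M replicate 3 (mean −1.32) and Con TAC F replicate 2 (mean 1.25). In the first of these, 1 gene lay above the group mean, and in the second, 9 did.

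Nppa, which encodes the atrial natriuretic peptide and rises with load on the ventricle, was compared with the 10 genes in the same way. It had 9399 ± 3657 in Con Sham, 48575 ± 26160.4 in Con TAC, 11471 ± 6848 in ONOFF Sham and 144243 ± 61993 in ONOFF TAC (SD, n = 10 each). Within groups its correlation was positive with all 10, and the permutation test adjusted over the 10 passed for Junb alone (r = 0.529, rho = 0.529, permutation p 0.00178 and 0.00186, adjusted 0.0178 and 0.0186). That r was 0.460 without the 2 libraries farthest from the median of Junb and 0.478 without the 5 that stood apart. For Nr4a3 it was 0.093 and for Myc 0.138, with adjusted permutation p-values of 0.611 and 0.556.

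The genes most like each of the 10 were named by the highest r over the 40 libraries, after subtraction of group means, as a description. Fos was most like Dusp1 (0.909), Zfp36 (0.834) and Ier2 (0.765), Junb like Ier2 (0.917), and Egr1 like Ier2 (0.874). Egr2 was most like Ier2 (0.753) and Egr3 like Thbs1 (0.762), once the 10 themselves were set aside. Jun was most like Nrarp (0.837) and Nr4a1 like Btg2 (0.882). Nr4a3 had another set: Irs2 (0.884), Atf3 (0.868) and Sik1 (0.853). Fosb, with Apbb1ip at 0.635, and Myc, with Esyt1 at 0.661, had no close match.

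Other genes that work with these factors were followed as lists. Their counts are to be read against the shares of all tested genes called after TAC, which were 3.17% higher and 2.62% lower in Con mice, and 10.7% higher and 10.6% lower in ONOFF mice. Of 12 tested AP-1 partners (FOS and JUN relatives and the small MAF and ATF proteins that pair with them), 3 rose and 0 fell after TAC in Con mice, and 4 rose and 0 fell in ONOFF mice. Atf3, a stress-induced ATF protein, rose by a log2 change of 1.53 in Con and 1.12 in ONOFF (adjusted p 0.00583 and 0.0169 in limma). The small MAF genes Mafk (0.51 and 0.91) and Maff (0.54 in both) rose in both genotypes. Fosl2, a FOS relative, rose in ONOFF by 0.56 (adjusted p 0.011 in limma) and was at 0.31 in Con (adjusted p 0.287 in limma).

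Of 7 tested EGR and NR4A relatives and cofactors, 0 rose or fell in Con mice (2 had an unadjusted p below 0.05) and 2 fell in ONOFF mice. Those were Rxrg (−0.54, adjusted p 5.32e-05 in limma) and Rxra (−0.18, adjusted p 0.0221 in limma), retinoid X receptors, with which NR4A1 can pair. Nab1, a repressor that binds EGR proteins, was at −0.035 in Con and 0.14 in ONOFF. Of 11 genes of the MYC network, 0 passed in Con (3 had an unadjusted p below 0.05) and 1 rose in ONOFF: Mxd4, whose protein competes with MYC for MAX, by 0.22 (adjusted p 0.0212 in limma). That 1 of 11 is near the 10.7% of all tested genes. Mycn, a MYC relative, was lower in ONOFF TAC than in Con TAC by a log2 difference of −0.76 (adjusted p 0.0183 in limma). It was the 1 of the 11 genes called in that comparison. That count is near the 7.97% of all tested genes called there in either direction, and is no result about the list.

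Of 30 other immediate early genes, 4 rose and 0 fell in Con mice, and 7 rose and 0 fell in ONOFF mice. Their median log2 changes were 0.18 and 0.24. Ccn2, a matrix protein gene also known as Ctgf, had 5470.2 ± 1676 in Con Sham, 11027 ± 4632 in Con TAC, 6106 ± 2139.8 in ONOFF Sham and 21062 ± 5801 in ONOFF TAC (SD, n = 10 each). It rose by 0.96 in Con and 1.82 in ONOFF, and was higher in ONOFF TAC than in Con TAC by 0.99 (adjusted p 0.00277 in limma). Its relative Ccn1 was higher there by 0.57 (adjusted p 0.0231 in limma). These were the 2 of the 30 genes called in that comparison. That count is near the share of all tested genes given next, and is no result about the list. In the same comparison, where 7.97% of tested genes were called in either direction, 2 of 6 fibroblast markers were higher (Col1a1 by 0.67 and Dcn by 0.27) and 3 of 6 cardiomyocyte markers lower (Myh6, Tnni3 and Pln, by −0.50, −0.45 and −0.32). Their part in the values of Ccn2, Ccn1 and Mycn was not tested. Ier5 (0.81 and 0.47) and the growth arrest gene Gadd45g (0.77 and 0.68) rose in both genotypes.

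The signalling genes that lead to these promoters were listed too. Of 14 upstream factors, 1 rose in Con mice, Crem (0.40, adjusted p 0.024 in limma), a CREB relative. In ONOFF mice 2 rose, Srf (0.29) and its partner Elk3 (0.23), and 1 fell, Mef2a (−0.36). Of 16 MAP kinase genes, Mapk14, which encodes p38 alpha, fell in both genotypes (−0.42 in Con and −0.49 in ONOFF), and in ONOFF mice Rps6ka5 fell as well (−0.55, adjusted p 0.0156 in limma). The counts of these 2 lists are near the shares of all tested genes called, 3.17% higher and 2.62% lower in Con mice and 10.7% and 10.6% in ONOFF mice, and are no result about the lists. Of 14 inhibitors that feed back on MAP kinases, 1 rose and 2 fell in Con mice, and 5 rose and 2 fell in ONOFF mice. Dusp4 rose in ONOFF by 1.22 and Spry1 by 0.54, while the phosphatase genes Dusp7 (−0.44) and Dusp10 (−0.75) fell. After sham surgery and for the difference of the TAC responses, 0 genes of these 7 lists passed in limma, with 0 to 4 genes of a list at an unadjusted p below 0.05 after sham surgery and 0 to 3 for the difference.

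Markers of cell types were counted beside these results, because in whole tissue fewer cells of a type and less RNA per cell cannot be told apart. Of all tested genes, 3.17% were called higher and 2.62% lower after TAC in Con mice, and 10.7% higher and 10.6% lower in ONOFF mice. In ONOFF mice 4 of 6 cardiomyocyte markers fell after TAC, and their summed level went from 2008640 to 3000210 after sham surgery to 1498180 to 2102820 after TAC. Of 6 fibroblast markers 3 rose and 1 fell, and the sum went from 41694 to 60074 to a range of 59869 to 74812. In Con mice 1 cardiomyocyte marker fell, and 1 fibroblast marker rose and 1 fell, with sums of 39117 to 60121 after sham surgery and 40173 to 70480.1 after TAC for fibroblasts. Of 6 endothelial markers 0 passed after TAC in either genotype, with 1 at an unadjusted p below 0.05 in Con and 0 in ONOFF. In ONOFF mice 1 of 6 smooth muscle and pericyte markers and 1 of 6 macrophage markers rose, and 1 of 6 lymphocyte markers fell. Counts of 1 of 6 are near the shares of all tested genes called in ONOFF mice, and are no result about these cell types. No erythroid, adipocyte, neutrophil or platelet marker passed after TAC in limma, and of these 1 adipocyte marker in ONOFF had an unadjusted p below 0.05. The part of these shifts in the changes of the 10 genes was not tested.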

How the data were processed

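Total RNA of the left ventricle, from FVB/NJ mice, gave 40 stranded sequencing libraries, per the labels' protocols. Per the submitters' processing notes, FastQC 0.11.7, MultiQC 0.8, STAR 2.7.3a, Salmon, R 4.3.1 and DESeq2 were used, with the build GRCm39. The authors deposited 1 table of normalized count signal for 22676 genes; how the values were scaled is not given in the sources used here, and whole reads could not be recovered from them, so no count test, interval or detection limit is given. Every column matched 1 library by its label.

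Values were taken as log2(value + 1), so fold changes of low genes are understated. Genes with at least 10 in at least 5 libraries were tested (16395). limma 3.58.1 (R 4.3.3) fitted 8 group means with trend and robust variance, and contrasts averaged the sexes equally. Two-sided p-values were adjusted over all tested genes of a contrast (Benjamini-Hochberg), and an adjusted p below 0.05 was a call. The procedure was tested on simulated data in which noise was drawn independently for each gene and library, so spread shared between genes was not covered. Correlations used 100000 shuffles within groups (numpy 2.4.6, scipy 1.17.1 and pandas 2.3.3 in Python 3.11.15), and figures matplotlib 3.10.9. Promoters are RefSeq's, on GRCm38.p6.

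The 10 genes and the lists were chosen with earlier results of these data known. Besides the 10 genes, the text names up to 4 genes of each list with the smallest p over both TAC contrasts, the genes most like each of the 10, reference genes, and markers. Alternatives tried were: library weights, quantile normalization, TMM rescaling, a pseudocount of 10, dropping the filter, requiring a mean of at least 50, fitting just the groups compared, sex as an additive term, a replicate block, a random block by the number in the library names (statmod 1.5.0), no trend or robust variance, and each library left out. Leaving out the 3 libraries with many zeros, or the 2 low in Xist, was chosen after seeing the data. Protein sequences were not used here.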

Additional observations from a re-analysis of the deposited data

Results flagged for a closer look

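In each of 80 groups of 5 libraries (10 genes in 8 groups), the gap between the most extreme log2 value and its neighbour was divided by the range of the group, and 6 groups exceeded the 95% critical ratio of 0.71 of Dixon's test. Chance flags about 1 in 20 groups. Fos had 1 low library in each sex of Con Sham: F replicate 3 at 174, where the other 4 had 254 to 263, and M replicate 3 at 42.8, where the other 4 had 561 to 891. The first of these is also a library with many zeros. Con TAC M replicate 2 was low for Jun (3158) and for Nr4a1 (493). Egr3 was low in ONOFF Sham F replicate 4 (59.4, with 96.4 to 101 in the other 4). Myc was high in Con Sham F replicate 5 (177, with 114 to 123 in the other 4), which also has many zeros. No difference between the sexes and no difference of the TAC responses passed in limma for any of the 10 genes.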

How the results depend on the processing

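The count of the 10 genes called after TAC was 3 in Con mice as reported and 2 to 4 over single omissions; it was 1 without the 2 libraries low in Xist. In ONOFF mice it was 4 as reported and 3 to 5. Between the genotypes after TAC it was 0 as reported, 2 with library weights (Egr2 1.46 higher, adjusted p 0.0306; Nr4a3 −1.24 lower, adjusted p 0.0247 in limma), 2 without the libraries low in Xist, and 0 to 1 over single omissions. The counts for sham and for the difference of TAC responses were 0 in every alternative run. With the replicate number as a block the TAC counts were 3 in Con and 3 in ONOFF, Junb being lost there (adjusted p 0.0571 in limma). Same-numbered libraries of different groups had a median correlation of deviations of 0.00436, beside 0.00216 for differently numbered ones. Libraries that share the number in their names had 0.0395 (49 pairs). These medians do not settle whether any libraries are paired. Junb was also lost with no filter, quantile normalization and no trend or robust variance (adjusted p 0.0594, 0.0526 and 0.0524 in limma), and Nr4a3 passed in ONOFF with library weights (1.03, adjusted p 0.0295 in limma). The causes were not tested.

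Of 2000 log2 changes over single omissions, 13 lost and 5 gained a call and 97 changed sign; of 635 under other alternatives, 7, 5 and 18. No sign change involved a called value. After TAC in Con, Fos was at 0.0051 (quantile) and 0.074 (many zeros left out), Fosb at −0.12 (library weights) and −0.51 (Xist), Egr1 at 0.11 (many zeros) and Junb at −0.052 (Xist). For sham, Myc was at 0.0034 (TMM), 0.015 (quantile), 0.070 (weights) and 0.093 (many zeros), and Nr4a3 at −0.13 (weights) and −0.12 (many zeros). For genotype after TAC, Fosb was at 0.17 (weights), 0.036 (name block) and 0.57 (Xist), and Fos at 0.43 (Xist). For the difference of TAC responses, Nr4a1 was at −0.20 (weights) and −0.010 (many zeros). Over single omissions, signs changed within these ranges: after TAC in Con, Egr1 −0.32 to 0.10, Fos −0.41 to 0.17 and Fosb −0.25 to 0.36. For sham, they were Egr2 −0.012 to 0.43, Egr3 −0.11 to 0.24, Fosb −0.50 to 0.0035, Myc −0.080 to 0.068 and Nr4a3 −0.078 to 0.25. For genotype after TAC, they were Fos −0.25 to 0.18, Fosb −0.31 to 0.31 and Junb −0.023 to 0.28. For the difference, they were Egr3 −0.0098 to 0.40, Fosb −0.048 to 0.57, Jun −0.087 to 0.089 and Nr4a1 −0.17 to 0.34.

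Over all tested genes, the count called moved by over 1.5 times in these alternatives other than single omissions. For TAC in Con it was 948 as reported, 493 with only the groups compared and 582 without the libraries low in Xist. For TAC in ONOFF it was 3480 and 5266 with library weights. For genotype after TAC it was 1306 and 2355 with weights. For the difference it was 73, then 30 (no filter), 32 (name block, and no trend or robust variance), 120 (quantile), 131 (many zeros), 151 (Xist) and 449 (weights). For sham it was 23, then 2 (many zeros), 12 (only the groups compared), 13 (no filter), 14 (replicate block, and no trend or robust variance) and 47 (weights). Fosb has no value under a mean of at least 50, and the difference of TAC responses uses all groups, so that restriction was not run for it. Values below about 50, as for Fosb, and the wide spread of Fos, Egr1 and Nr4a1 limit what 10 libraries a condition can show.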

Other observations

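Heat shock genes, whose proteins refold others under stress, were followed as a further list of 6 genes. After TAC 3 of 6 rose and 0 fell in each genotype, with median log2 changes of 0.66 in Con and 0.80 in ONOFF. Of all tested genes, 3.17% were called higher and 2.62% lower in Con mice, and 10.7% higher and 10.6% lower in ONOFF mice. Hsp90aa1, a cytosolic chaperone, had 8671 ± 2048 in Con Sham, 13487 ± 2738 in Con TAC, 10487 ± 2731 in ONOFF Sham and 17180 ± 2713 in ONOFF TAC (SD, n = 10 each), with log2 changes of 0.65 and 0.73 (adjusted p 0.000757 and 1.66e-05 in limma). Hspb1, a small heat shock protein abundant in muscle, rose by 0.64 and 0.86 (adjusted p 0.00652 and 2.95e-05 in limma). Hspa1b, the inducible HSP70, ran from 178 to 11864 over the 40 libraries and passed in neither genotype (adjusted p 0.384 and 0.397 in limma). Between the genotypes 0 of the 6 passed after sham surgery or TAC (2 and 1 had an unadjusted p below 0.05). Of all tested genes, 0.14% were called after sham surgery and 7.97% after TAC.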
